A study of Rattus norvegicus with 138 samples.

Results

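The comparison described here is between tibialis anterior (TA) muscles of rats 14 days after an unrepaired volumetric muscle loss (VML) injury and control TA muscles of the same strain. Its members are 8 of the 138 RNA-seq samples of the series, 4 injured and 4 control muscles. They were chosen by their labels: VML, NoRun and NoRepair at day 14 for the injured group, and Sham at day 0 for the control group. Libraries with fewer than 7000 gene symbols above 1 TPM (an expression level scaled to transcript length and to the total of the library) were to be dropped, and no library of these groups was.

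All rats were male Lewis rats of about 4 months with no transgene. In the injured group a biopsy punch removed a full-thickness plug from the middle of the left TA, nothing was placed in the defect, and the rats were not labelled as running; each of the 4 muscles came from a different rat. The control group is labelled Sham at day 0 and described in the study as unoperated, and its 4 muscles were the left and right TA of 2 rats. The uninjured right TA of 2 of the injured rats (labelled NoVML, NoRepair, day 14) served as another reference and is called contralateral here. The control rats were numbered in a different series from all operated rats, so injury and rat series cannot be told apart against control muscle, whereas contralateral muscles shared the series of the injured ones. RNA came from homogenized whole muscle, so the defect, the remaining muscle and any scar, nerve, tendon or blood in them were measured together.

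Satellite cells lie between a muscle fiber and its basement membrane, and new fibers are known to come from them. Their progeny join into myotubes, which mature once a motor nerve contacts them at the neuromuscular junction. VML removes fibers together with their satellite cells, basement membrane, vessels and intramuscular nerve branches, and the defect is known to fill with collagen-rich scar. Fibers that lose their nerve, and immature fibers, are known to spread acetylcholine receptors over their whole surface and to use embryonic receptor and sarcomere proteins. The rat TA is a predominantly fast muscle.

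The tissue label held in all 8 muscles. Acta1, the skeletal muscle actin, had 44585 to 69428 TPM in control and 38491 to 47303 TPM in injured muscles, and Mylpf, a fast myosin light chain, 38974 to 53489 and 44971 to 53552 TPM. The number of symbols above 1 TPM was 7866 to 8914 in control, 8920 to 9067 in contralateral and 10145 to 10420 in injured libraries. Control replicate 4 had the fewest. The 5 ribosomal RNA symbols of the table took at most 0.25% of the TPM in any of these libraries. TPM carries no read depth, so no counting error can be given, and all errors below are the spread between muscles. Left and right muscles of 1 rat are not independent, so the control spread rests on 2 rats.

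Across the 11213 genes tested, 2893 (25.8%) were called, that is, had a Benjamini-Hochberg adjusted p under 0.05 in limma and a log2 fold change beyond 1 or -1 on log2(TPM + 1). Of these, 2831 (25.2% of tested genes) were higher and 62 (0.553%) lower in injured muscle. On that scale, which understates the change of low genes, 85 genes were more than 16-fold higher, 763 more than 4-fold higher and 3 more than 4-fold lower. The 4 injured and 4 control muscles did not overlap in TPM for 7237 genes (64.5%), and for 2861 of the called ones. TPM values of a library sum to a fixed total, so a loss of abundant transcripts and a gain of all others cannot be told apart. The median log2 fold change of all tested genes was 0.53. After median-of-ratios size factors it was 0.03, with 1764 genes (16%) called higher and 623 (5.64%) lower, so the share of calls that were higher went from 97.9% to 73.9%. List counts of this comparison with size factors are therefore given beside the main ones, and a share of members called higher near 25.2% is that of all genes. Symbols later in the alphabet than Tubb3 were not analysed here, so every count leaves them out. Without control replicate 4, which had the fewest symbols, 2488 genes were called, 2392 higher and 96 lower, and the median was 0.39. Of the lists described below, denervation and neuromuscular junction then had 15 members called higher, fibrillar collagens 8, pan-leukocyte and macrophage 29 and endothelium 4. The lower calls were 46 without the first and 103 without the second control rat, and 26 with low-complexity libraries kept.

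The 10 largest gains in mean TPM were, in order, H19, Mylpf, Pvalb, Sln, Sparc, Col3a1, Hba1, Apoe, Eef1a1 and Hbb, of which H19, Sln, Sparc, Col3a1, Apoe and Eef1a1 were called. The 10 largest losses were Aldoa, Myh4, Gapdh, Ckm, Tpm1, Acta1, Atp2a1, Tnni2, Actn3 and Pygm, which serve contraction, calcium handling or energy supply in muscle fibers. Sparc, a collagen-binding protein, was at 188, 174, 180.4 and 131 TPM in control and 1970.4, 2011, 2774 and 2098 TPM in injured muscles (log2 fold change 3.71, SE 0.28, adjusted p 3.54e-17), without overlap. Gapdh, the glycolytic enzyme often used as a reference gene, was at 24402, 23061, 22312 and 35551 TPM in control and 15032, 14959.5, 12594 and 13716 TPM in injured muscles (log2 fold change -0.88, SE 0.19, adjusted p 5.53e-05), so it passed the p threshold but not the fold threshold.

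**Figure D1:**
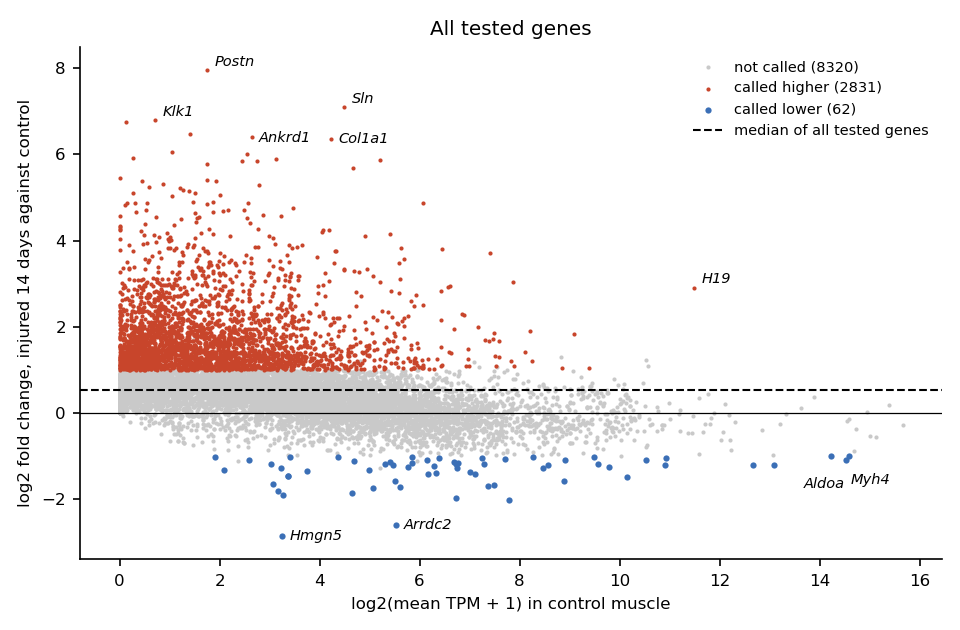
Each of the 11213 tested genes by its log2(mean TPM + 1) in the 4 control muscles (horizontal) and its log2 fold change at 14 days (vertical), with genes called higher in red, called lower in blue and the others in grey. Most points lie above 0, around the dashed median of 0.53, and the 62 lower genes lie nearer to 0 than the highest of the 2831 higher ones.

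Genes of the neuromuscular junction and of denervated muscle were raised, and the embryonic acetylcholine receptor led them. In this list 16 of 22 tested members were called higher and 0 lower (median log2 fold change 1.25, against 0.53 for all genes). With size factors 10 were called higher, and against contralateral muscle 16. In whole muscle, a change in the number of cells of a type and a change in RNA per cell cannot be told apart, here or in any list that follows.

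The muscle acetylcholine receptor is a ring of alpha, beta, delta and either gamma (embryonic) or epsilon (adult) subunits. Chrng, the embryonic gamma subunit, was at 0, 0.22, 0.08 and 0 TPM in the 4 control muscles, 0 and 0.32 TPM in the 2 contralateral muscles and 22.9, 22.2, 26.4 and 53.8 TPM in the 4 injured muscles (log2 fold change 4.82, SE 0.35, adjusted p 1.23e-17). The control muscles were at or close to 0 and every injured muscle was far above them. Chrna1, the alpha subunit, went from 4.74, 5.99, 3.96 and 3.72 TPM to 119.8, 107, 152 and 223 TPM, with no overlap (log2 fold change 4.72, SE 0.39, adjusted p 1.38e-15). Chrnd, the delta subunit, had 3.61, 3.61, 3.46 and 3.32 TPM in control and 93.3, 87.9, 122 and 182 TPM in injured muscles (log2 fold change 4.70, SE 0.43, adjusted p 3.22e-14). Chrne, the adult epsilon subunit, also rose, from 5.83 ± 1.91 to 35.9 ± 4.80 TPM (SD, n = 4 each, as for all values with ± below). The beta subunit Chrnb1 had 26.1 ± 5.81 and 50.4 ± 7.11 TPM, a log2 fold change of 0.94 that stayed under the fold threshold. The mean ratio of injured to control was thus 32.7 for Chrna1, 34.6 for Chrnd and 1.93 for Chrnb1, subunits of the same receptor.

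Myogenin and MyoD are known to bind E-boxes (CANNTG, often CAGCTG) in the promoters of receptor subunit genes, so the 250 bases upstream of the start sites of 3 subunits that rose are shown (RefSeq, build GRCr8, on the gene's own strand, at chr3:78877354-78877603 for Chrna1, chr9:95310066-95310315 for Chrnd and chr9:95325734-95325983 for Chrng), with every CANNTG in capitals.
Chrna1: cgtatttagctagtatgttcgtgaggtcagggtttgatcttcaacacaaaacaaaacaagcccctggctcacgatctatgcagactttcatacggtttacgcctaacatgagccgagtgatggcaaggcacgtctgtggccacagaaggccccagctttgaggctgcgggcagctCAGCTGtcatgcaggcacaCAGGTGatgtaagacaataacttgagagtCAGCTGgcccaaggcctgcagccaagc
Chrnd: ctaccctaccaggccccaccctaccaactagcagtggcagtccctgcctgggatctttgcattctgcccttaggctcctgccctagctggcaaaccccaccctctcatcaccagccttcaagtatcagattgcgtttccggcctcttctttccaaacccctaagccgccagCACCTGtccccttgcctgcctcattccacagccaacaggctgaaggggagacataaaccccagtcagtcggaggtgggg
Chrng: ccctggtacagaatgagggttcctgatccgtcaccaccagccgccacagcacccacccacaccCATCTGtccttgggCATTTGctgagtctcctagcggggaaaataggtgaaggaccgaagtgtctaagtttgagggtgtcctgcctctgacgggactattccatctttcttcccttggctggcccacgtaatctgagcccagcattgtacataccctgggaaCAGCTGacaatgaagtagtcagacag
CAGCTG began 75 and 27 bases before the start in Chrna1 and 26 bases before it in Chrng, whereas the single E-box of Chrnd was CACCTG at 79 bases. It also stood at 41 bases in Chrnb1, at 116 in Chrne and at 79 in Musk. In all 33469 promoters of the table, 65.5% held a CANNTG and 12% a CAGCTG in the same window; both motifs read alike on both strands, and CAGCTG is a case of CANNTG. The motifs were searched after the expression values were seen, and a match is a description of letters, not of binding.

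Other junction genes were called in part. Musk, the kinase through which nerve-derived agrin clusters receptors, rose from 0.32 ± 0.202 to 7.63 ± 2.03 TPM, and its coreceptor Lrp4 from 2.46 ± 0.973 to 6.79 ± 0.667. Agrn, agrin itself, was also called higher (log2 fold change 1.27), although Lrp4 and Agrn were not called with size factors. The scaffold Rapsn (19.8 ± 3.57 and 30.1 ± 2.93 TPM), the adaptor Dok7 (15.8 ± 4.84 and 18.6 ± 3.28) and the esterase Ache (46.9 ± 11 and 45.7 ± 7.51) were not called.

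Genes known to mark fibers without nerve contact moved with the receptors. Ncam1, the neural cell adhesion molecule, was at 2.26, 1.90, 1.76 and 1.69 TPM in control and 25.1, 25.6, 34.3 and 49.0 TPM in injured muscles (log2 fold change 3.52, SE 0.30, adjusted p 4.02e-15). The adult muscle sodium channel Scn4a had 62.2 ± 17.3 TPM in control and 48.8 ± 3.50 TPM in injured muscles and was not called. Runx1, a transcription factor that sustains denervated muscle, rose from 1.74 ± 0.599 to 25.1 ± 8.68 TPM, and Gadd45a from 21.3 ± 7.78 to 214 ± 45.9. Regenerating fibers are known to use these genes too, and the 2 states cannot be told apart here.

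The ubiquitin ligases that mark active atrophy were not called. Trim63 (MuRF1) was at 224, 257, 232 and 126 TPM in control and 206, 157, 181 and 208 TPM in injured muscles, and their values overlapped (adjusted p 0.751 in limma). Fbxo32 (atrogin-1) was at 145, 143, 105 and 72.4 TPM in control and 56.6, 60.3, 83.2 and 84.4 TPM in injured muscles (adjusted p 0.137 in limma), also with overlap, and was called lower with size factors. In the atrophy and FoxO list 2 of 17 members were called higher, Cdkn1a and the metallothionein Mt2A, and 0 lower. With size factors these 2 were higher and 4 were lower (Fbxo32, Foxo4, Bnip3 and Ddit4, of which Ddit4 was also lower without control replicate 4), and the list's median log2 fold change went from -0.10 to -0.74.

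Among the genes with the largest changes of all were Sln, Ankrd1, Cdkn1a and Klk1, and which cells carried their transcripts was not tested. Sln encodes sarcolipin, a small inhibitor of the sarcoplasmic reticulum calcium pump. It was at 21.4, 17.3, 32.3 and 14.8 TPM in control, 20.1 and 18.2 TPM in contralateral and 2645, 2286, 2882 and 4339 TPM in injured muscles (log2 fold change 7.10, SE 0.32, adjusted p 1.71e-25), which made it one of the 10 genes with the largest gain in mean TPM. Ankrd1, a stretch- and stress-responsive ankyrin repeat protein of the sarcomere, went from 4.34, 4.64, 6.64 and 5.35 TPM to 423, 379.7, 567 and 803 TPM (log2 fold change 6.4, SE 0.33, adjusted p 2.85e-23). Cdkn1a (p21), the cell cycle inhibitor that myoblasts use to leave the cycle, went from 4.71, 6.76, 3.54 and 2.79 to 257, 220.0, 349 and 420.0 TPM (log2 fold change 5.85, SE 0.31, adjusted p 8.59e-23). Klk1, tissue kallikrein, the protease that releases kinins, went from 0.61, 0.88, 0.8 and 0.21 to 156, 150.1, 211 and 204 TPM (log2 fold change 6.80, SE 0.35, adjusted p 2.85e-23). Rat kallikreins are a family of near-identical copies, so the split of reads among them is uncertain. In each of these 4 genes the lowest injured muscle was above the highest control muscle, and all were called with size factors and against contralateral muscle.

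The relatives of these genes rose less or were not called. Of the ankyrin repeat and LIM stress list, 5 of 15 were called higher (4 higher and 3 lower with size factors), among them Csrp3 (46.9 ± 16.7 to 320.1 ± 67.8 TPM) and Fhl2 (0.935 ± 0.823 to 13.5 ± 2.68), while Ankrd2 (13.4 ± 4.24 and 19.6 ± 10.3) and Ankrd23 (1709.8 ± 689 and 1723 ± 168) were not called. In the kallikrein-kinin and renin-angiotensin list, 3 of 11 were called higher (3 with size factors), a share close to the 25.2% of all genes. Besides Klk1 these were the angiotensin receptors Agtr1a (1.54 ± 0.396 to 7.17 ± 1.39 TPM) and Agtr2 (0.05 ± 0.1 to 1.18 ± 0.209). The kinin receptor Bdkrb2 had 0.49 ± 0.257 and 1.32 ± 0.422 TPM and was not called.

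Developmental sarcomere genes, used by embryonic and newly formed fibers, were called higher in 8 of 10 cases (7 with size factors, 8 against contralateral muscle). Myh3, the embryonic myosin heavy chain, was at 2.41, 2.91, 2.55 and 1.55 TPM in control and 70.2, 82.3, 104 and 132 TPM in injured muscles (log2 fold change 4.85, SE 0.40, adjusted p 1.47e-15). Myh8, the perinatal heavy chain, went from 7.41, 8.33, 7.54 and 6.57 to 51.5, 55.7, 70.3 and 79.2 TPM (log2 fold change 2.93, SE 0.29, adjusted p 9.56e-13). Every injured muscle was above every control muscle for both chains. Actc1, the cardiac actin of fetal muscle, rose from 41.5 ± 11.6 to 736 ± 143 TPM, Tnnt2, the cardiac and embryonic troponin T, from 1.30 ± 0.306 to 85.7 ± 18.2, and Myl4, the embryonic light chain, from 32.6 ± 4.18 to 304 ± 62.0. On the TPM scale Myh3 stayed far under the adult fast chain Myh4, which had 11237 ± 2432 TPM in the same injured muscles.

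Of the myogenic regulators and satellite cell genes 5 of 15 were called higher and 0 lower, and with size factors 5 higher and 1 lower. Myog, which drives myoblasts into differentiation, was at 4.55, 5.30, 8.0 and 2.44 TPM in control and 115, 96.6, 102 and 188 TPM in injured muscles (log2 fold change 4.41, SE 0.31, adjusted p 5.41e-18). Tmem8c (myomaker), needed for myoblast fusion, went from 0.06, 0.22, 0.06 and 0.1 to 27.1, 27.0, 34.7 and 39.7 TPM (log2 fold change 4.88, SE 0.29, adjusted p 4.42e-21). Neither gene overlapped between groups. Pax7, the satellite cell factor, rose from 0.505 ± 0.224 to 3.16 ± 0.619 TPM and Myf5 from 1.60 ± 0.8 to 6.29 ± 0.929. Myod1 (31.1 ± 9.85 and 53.7 ± 16.3 TPM) and Myf6 (108 ± 38.2 and 187 ± 22.3) were not called.

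Repressors of myogenesis were called higher in 6 of 12 cases and lower in 1 (4 and 2 with size factors). Those higher included Msc (musculin), which competes with MyoD (0.343 ± 0.363 to 8.0 ± 1.01 TPM), the inhibitor of DNA binding Id2 (3.32 ± 1.51 to 21.6 ± 1.54) and Snai2 (0.315 ± 0.0733 to 6.02 ± 0.659). The member called lower was Mstn, myostatin, the muscle's own growth inhibitor, at 21.2, 20.6, 25.5 and 11.8 TPM in control and 10.2, 9.81, 7.2 and 8.67 TPM in injured muscles (log2 fold change -1.02, SE 0.28, adjusted p 0.00122). It was also called lower with size factors but not against contralateral muscle, where the values were 12.8 and 18.5 TPM.

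**Figure D2:**
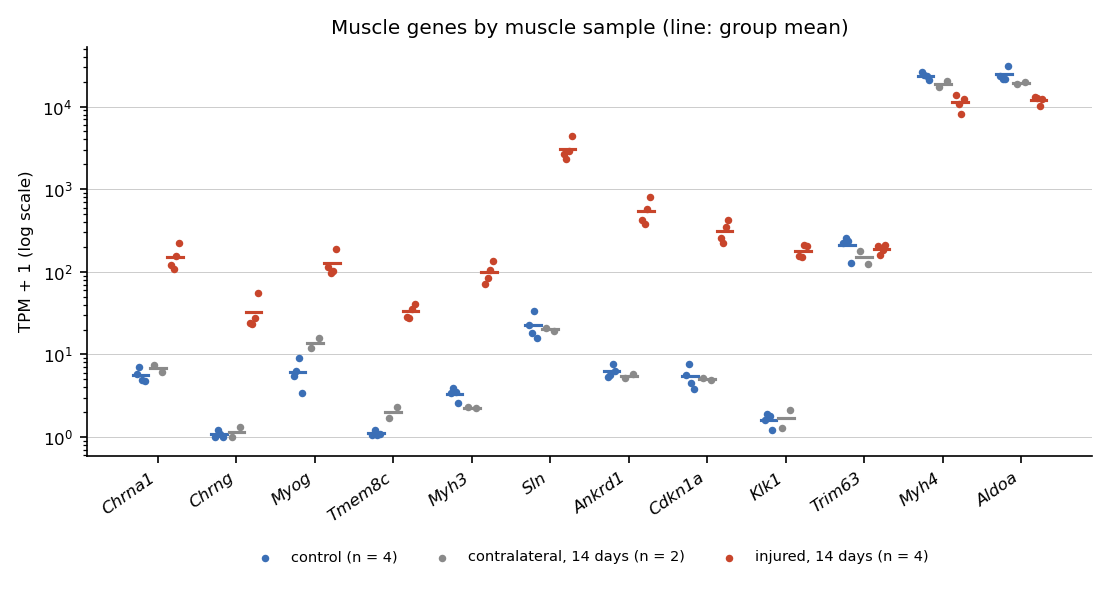
TPM + 1 on a log axis for 12 muscle genes, with 1 point for each control (n = 4), contralateral (n = 2) and injured 14-day (n = 4) muscle and a line at the group mean. For Chrng, Sln, Ankrd1 and Myh3 the 4 injured muscles stand above all control and contralateral muscles, while Trim63 overlaps between groups.

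Adult fast-fiber transcripts took a smaller share of the library after injury. The 20 tested genes of the fast sarcomere and its calcium handling took 32.4% to 40.5% of all TPM in control, 36.9% to 37.6% in contralateral and 26.2% to 31.8% in injured muscles. By gene, 4 were called lower and 0 higher, and with size factors 10 lower; against contralateral muscle 0 were called lower (12 with size factors). Myh4, the chain of the fastest fibers, was at 26146, 23946, 23237 and 20929 TPM in control and 13643, 10805, 8035 and 12467 TPM in injured muscles (log2 fold change -1.09, SE 0.28, adjusted p 4.44e-04), with 17325 and 20335 TPM in contralateral muscles. Mylk2, the skeletal myosin light chain kinase, went from 1128 ± 150.1 to 401 ± 55.9 TPM, Actn3, the fast Z-disc actinin, from 8662 ± 2176 to 3693 ± 414, and Atp2a1, the fast calcium pump, from 19086 ± 2401 to 9449.7 ± 554. The fall was not shared by all fast genes: Myh1 (4411 ± 760.3 and 5022 ± 167 TPM), Pvalb, the calcium buffer parvalbumin (15172 ± 1128 and 19509 ± 2139.8), and Mylpf were not called under either scaling.

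Of 14 tested slow-fiber genes 4 were called higher and 0 lower, against 25.2% of all genes called higher. Without control replicate 4 there were 6 higher, Tnnc1 and Actn2 being added. With size factors 3 were higher and 2 lower, Myl3 and Mybpc1. Their share of TPM was 1.29% to 2.06% in control, 1.37% to 1.49% in contralateral and 1.96% to 2.46% in injured muscles, so control and injured muscles overlapped. Besides Sln the members called higher were Casq2, the slow and cardiac calsequestrin (9.64 ± 2.10 to 92.8 ± 14.8 TPM), Tnni1, slow troponin I (114 ± 18 to 581 ± 199), and Atp2a2, the slow calcium pump (72.2 ± 6.58 to 152 ± 42.0), the last not with size factors. Myh7, the slow heavy chain itself, was at 100.2, 76.8, 81.7 and 130.0 TPM in control and 23.4, 104, 172 and 27.5 TPM in injured muscles and was not called, nor was Myl3 (1043 ± 130.2 and 569.8 ± 275 TPM) on TPM as deposited.

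Glycolytic genes also took a smaller share. Together the 22 genes of glycolysis and glycogen use took 9.0% to 11.4% of TPM in control and 5.21% to 6.39% in injured muscles, without overlap, and 8.67% to 9.19% in contralateral muscles. All had a negative log2 fold change, between -1.0 and -0.23, so that only Aldoa, muscle aldolase, passed the fold threshold (24489 ± 4631 to 12121 ± 1305 TPM). Without control replicate 4 Aldoa was not called and 2 other members were called lower, Pfkfb1 and Ppp1r3a. With size factors 17 were called lower. Against contralateral muscle 0 were called lower, and 18 with size factors. For the 43 nuclear genes of oxidative phosphorylation the log2 fold changes lay between -0.74 and 0.09, none was called, and 16 were called lower with size factors. Against contralateral muscle 0 were called lower, and 24 with size factors. Their share of TPM was 4.32% to 4.91% in control and 3.66% to 4.15% in injured muscles. Of 23 genes of fatty acid uptake and oxidation, 1 was called (1 with size factors), the thioesterase Acot4, which is described with the contralateral muscles.

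The transcript that gained the most TPM was H19, an imprinted long noncoding RNA of fetal and regenerating muscle that lies beside Igf2. It was at 2825, 2741, 2857 and 3143 TPM in control, 5726 and 7287 TPM in contralateral and 22257, 22409, 20119.7 and 22222 TPM in injured muscles (log2 fold change 2.91, SE 0.27, adjusted p 3.78e-14), or 2.01% to 2.24% of all TPM after injury against 0.274% to 0.314% in control. The 3 groups did not overlap. Igf2, the fetal growth factor next to it, was at 31.2, 29.5, 30.5 and 28.0 TPM in control and 292, 311, 325 and 312 TPM in injured muscles (log2 fold change 3.33, SE 0.30, adjusted p 3.66e-14), without overlap. Igf1, the growth factor of adult muscle, was at 3.23, 4.23, 3.90 and 3.51 TPM in control and 32.1, 31.8, 43.5 and 45.3 TPM in injured muscles (log2 fold change 3.04, SE 0.24, adjusted p 2.49e-16). Binding proteins rose too, with Igfbp5 from 59.5 ± 14.9 to 396 ± 84.2 TPM and Igfbp6 from 18.9 ± 3.45 to 267 ± 44.6, whereas the receptor Igf1r (0.885 ± 0.373 and 1.84 ± 0.271) was not called. In the IGF axis list 10 of 12 members were called higher (8 with size factors).

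MicroRNA genes were present in the table as symbols of their own, and 195 of 454 were tested. Of these 47 were called higher and 0 lower (40 and 0 with size factors), a share close to the 25.2% of all genes. The library protocol does not select small RNAs, so these values count fragments of longer transcripts over the hairpin and say nothing of the mature microRNA. The mature sequences (RefSeq, GRCr8) of the members described are shown with the seed, bases 2 to 8, which pairs with targets, in capitals.
rno-miR-3120: cACAGCAAguguagacaggca
rno-miR-214-3p: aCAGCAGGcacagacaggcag
rno-miR-199a-5p: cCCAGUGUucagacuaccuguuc
rno-miR-133b-3p: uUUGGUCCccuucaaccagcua
rno-miR-21-5p: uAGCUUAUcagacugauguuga
rno-let-7b-5p: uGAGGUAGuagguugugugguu
rno-let-7d-5p: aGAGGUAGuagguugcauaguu
The last pair share the seed GAGGUAG, and the other seeds differ from each other.

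Mir3120 was at 11.4, 0, 11.4 and 0 TPM in control and 127, 212, 306 and 197 TPM in injured muscles (log2 fold change 5.84, SE 0.61, adjusted p 2.68e-12). It lies on chromosome 13 opposite Mir214, which was listed at 0 in both groups, and because the strand of the reads is not stated the pair cannot be told apart. Mir199a2 was listed at 0 in all control muscles and at 18.1, 16.6, 22.1 and 20.5 TPM in injured ones. Mir133b, a muscle microRNA gene, was at 9.63, 23.9, 19.4 and 4.88 TPM in control and 113, 124, 234 and 213 TPM in injured muscles (log2 fold change 3.61, SE 0.48, adjusted p 3.50e-09). Mir21 was at 0, 6.52, 3.83 and 0 TPM in control and 16.5, 8.97, 24.8 and 12.4 TPM in injured muscles (log2 fold change 2.67, SE 0.62, adjusted p 1.55e-04). The injured muscles were above the control muscles without overlap in these genes. They are not typical: groups did not overlap for 26 of the 195 tested microRNA genes, against 64.5% of all tested genes. Without control replicate 4, 34 microRNA genes were called higher and 1 lower. Mirlet7b was at 10.1, 0, 6.46 and 10.4 TPM in control and 29.4, 14.6, 52.7 and 20.4 TPM in injured muscles. Mirlet7d was at 8.46, 7.18, 22 and 0 TPM in control and 40.6, 32.1, 38.0 and 62.5 TPM in injured muscles. Both were called higher, and each had a control muscle listed at 0.

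**Figure D3:**
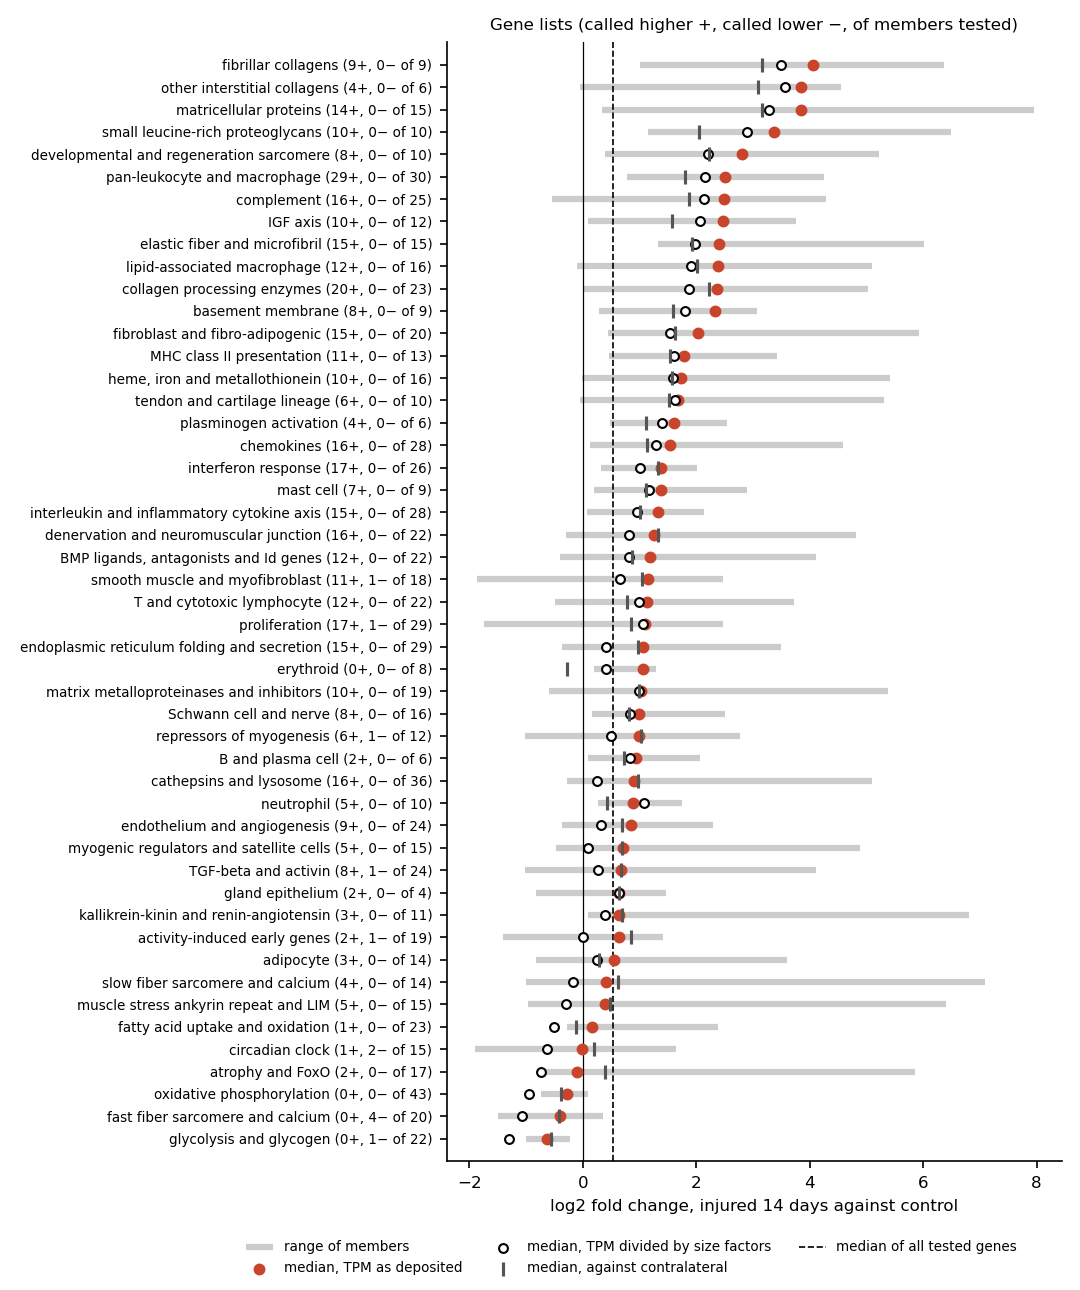
For each gene list with at least 4 tested members, the range of log2 fold changes of injured 14-day over control muscle (grey bar), the median from TPM as deposited (red), the median with size factors (open circle) and the median against contralateral muscle (tick), with counts called higher and lower beside the name. By TPM as deposited against control the fibrillar collagens have the highest median and glycolysis the lowest, and the dashed line marks the median of all tested genes, 0.53.

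Matrix genes were frequent among the most strongly raised ones. The 10 called genes with the highest log2 fold changes were Postn, Sln, Klk1, Cthrc1, Aspn, Ankrd1, Col1a1, Sfrp4, Mfap4 and Dlk1, of which Postn, Cthrc1, Aspn, Col1a1 and Mfap4 encode matrix proteins. Postn encodes periostin, a matricellular protein of healing tissue. Postn was at 2.05, 2.31, 3.55 and 1.60 TPM in control, 14.7 and 7.34 TPM in contralateral and 655, 747, 1103 and 834 TPM in injured muscles (log2 fold change 7.95, SE 0.39, adjusted p 6.75e-24). Col3a1, the type III chain of early scar, went from 40.4, 42.6, 44.9 and 16.8 to 1867, 1821, 2410.4 and 2072 TPM (log2 fold change 5.86, SE 0.28, adjusted p 1.24e-24). The fibrillar collagens together took 0.00498% to 0.0115% of TPM in control, 0.0257% to 0.049% in contralateral and 0.445% to 0.629% in injured muscles. All 9 tested members were called higher (8 with size factors), including the minor chains Col5a1 (3.20 ± 0.676 to 108 ± 15.6 TPM) and Col11a1 (0.14 ± 0.0949 to 10.8 ± 1.99), which set fibril diameter.

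The other structural matrix lists were called higher in most of their members. Matricellular proteins were called higher in 14 of 15 cases (14 with size factors), elastic fiber and microfibril genes in 15 of 15 (14), small leucine-rich proteoglycans in 10 of 10 (9), and basement membrane genes in 8 of 9 (6). Other interstitial collagens were higher in 4 of 6 (4). Cthrc1, a collagen triple helix protein of activated fibroblasts, was at 0, 0.27, 0.07 and 0 TPM in control and 95.7, 109, 156 and 107 TPM in injured muscles (log2 fold change 6.74, SE 0.39, adjusted p 1.19e-21). Aspn (asporin) went from 1.46, 2.36, 2.67 and 0.19 to 191, 197, 275 and 222 TPM (log2 fold change 6.49, SE 0.38, adjusted p 1.95e-21) and Mfap4, a microfibril protein, from 4.89, 5.40, 5.98 and 3.03 to 319, 338, 486 and 347 TPM (log2 fold change 6.01, SE 0.30, adjusted p 6.75e-24). In these genes the injured muscles were at least an order of magnitude above every control muscle. Among the matricellular proteins Cyr61 was the exception (18.9 ± 7.70 and 22.5 ± 4.72 TPM, not called), while Ctgf, of the same CCN family, rose from 10.3 ± 3.77 to 49.6 ± 7.92 TPM. Lamb2, the laminin beta chain of the junctional basement membrane, was not called (48.5 ± 5.1 and 59.2 ± 4.86 TPM).

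Enzymes that fold, trim and crosslink collagen were called higher in 20 of 23 cases (18 with size factors, 19 against contralateral muscle). The crosslinking oxidases Lox (0.422 ± 0.245 to 28.7 ± 3.41 TPM), Loxl1 (1.06 ± 0.294 to 66.8 ± 12.1) and Loxl2 (0.932 ± 0.483 to 33.4 ± 3.84) all rose. Of the prolyl hydroxylase subunits P4ha3 went from 0.0475 ± 0.095 to 9.88 ± 2.60 TPM, whereas P4ha1 (29.5 ± 1.40 and 29.9 ± 1.46) and P4ha2 (10.7 ± 2.69 and 19 ± 2.48) were not called. The endoplasmic reticulum list, which serves all secretion, was called higher in 15 of 29 (11 higher and 1 lower with size factors). Its highest members included Creb3l1, a transcription factor for collagen secretion (1.14 ± 0.0954 to 16.4 ± 2.89 TPM), while the chaperone Hspa5 (92.5 ± 24.8 and 147 ± 11.4) was not called.

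Matrix metalloproteinases and their inhibitors were called higher in 10 of 19 cases (9 higher and 1 lower with size factors). Mmp2, gelatinase A, was at 11.6, 10.8, 12.7 and 4.90 TPM in control and 250.3, 259, 372 and 266 TPM in injured muscles (log2 fold change 4.76, SE 0.30, adjusted p 3.29e-20), without overlap. Its membrane-bound activator Mmp14 was at 3.50, 2.94, 3.59 and 1.14 TPM in control and 129, 139, 193 and 146 TPM in injured muscles (log2 fold change 5.37, SE 0.30, adjusted p 7.30e-22). The inhibitor Timp1 rose from 2.16 ± 1.02 to 42.7 ± 8.22 TPM. The collagenases Mmp8 (0.03 ± 0.06 and 0.32 ± 0.136 TPM) and Mmp13 (0.01 ± 0.02 and 0.662 ± 0.287) stayed under 1 TPM and were not called, nor was Mmp9 (0.02 ± 0.0245 and 1.22 ± 1.11). In the plasminogen system 4 of 6 members rose (3 with size factors), among them the urokinase Plau, from 9.13 ± 4.64 to 44.8 ± 4.66 TPM, and its receptor Plaur, from 1.05 ± 0.258 to 5.95 ± 0.529 TPM.

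Of the TGF-beta and activin genes 8 of 24 were called higher and 1 lower (6 and 1 with size factors). Among ligands Tgfb1 was at 3.92, 3.44, 3.34 and 2.97 TPM in control and 24.7, 26.9, 33.9 and 27.2 TPM in injured muscles (log2 fold change 2.72, SE 0.18, adjusted p 3.69e-19), without overlap, and Tgfb3 (19.7 ± 3.29 and 39.4 ± 6.65 TPM) was not called. The antagonist follistatin, Fst, rose from 0.772 ± 0.371 to 9.39 ± 2.11 TPM. The signal carriers Smad2 (log2 fold change 0.58), Smad3 (0.06) and Smad4 (0.36) were not called, and the only member called lower was Mstn, given above. In the BMP list 12 of 22 were called higher (8 with size factors), among them the antagonist Chrd, from 1.22 ± 0.732 to 13.1 ± 3.35 TPM.

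Tendon and cartilage genes were called higher in 6 of 10 cases (6 with size factors). Tnmd (tenomodulin), a marker of mature tendon cells, was at 0.83, 0.54, 1.49 and 0.45 TPM in control, 2.86 and 1.85 in contralateral and 48.7, 83.8, 95.1 and 60.7 TPM in injured muscles (log2 fold change 5.31, SE 0.62, adjusted p 7.99e-11), and the injured muscles were all far above the others. Scx, the tendon lineage factor, was at 23.9, 23.1, 31.6 and 34.0 TPM in control and 51.6, 40.0, 44.8 and 51.1 TPM in injured muscles and was not called. The part that tendon or fascia in the sampled tissue had in these values was not tested.

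Mesenchymal cell markers rose with the matrix. Of the fibroblast and fibro-adipogenic list 15 of 20 were called higher (15 with size factors), with a summed level of 93.3 to 171 TPM in control and 1171 to 1628 TPM in injured muscles. Pdgfra, the defining receptor of fibro-adipogenic progenitors, went from 1.38, 1.69, 1.69 and 0.63 to 12.7, 13.2, 18.1 and 14.0 TPM (log2 fold change 2.74, SE 0.19, adjusted p 2.19e-18). Dlk1, a membrane protein of fetal and regenerating mesenchyme and muscle, went from 0.16, 0.2, 0.2 and 0.28 to 69.2, 71.5, 113 and 48.9 TPM (log2 fold change 5.92, SE 0.37, adjusted p 5.84e-20), and Lrrc15, a marker of activated fibroblasts, from 0.01 ± 0.02 to 15.8 ± 3.10 TPM. Sfrp4, a secreted Wnt antagonist, went from 1.20, 0.99, 1.68 and 0.37 to 125, 115, 152 and 141 TPM (log2 fold change 6.06, SE 0.33, adjusted p 2.93e-22). Each rose without overlap, and 3 of 14 adipocyte genes were called higher: Cfd, Cidea and Fabp4 (2 higher and 1 lower with size factors). The defining adipocyte genes Adipoq (1.46 ± 0.671 and 3.61 ± 3.25 TPM) and Plin1 (0.285 ± 0.156 and 1.06 ± 0.904) were not called.

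**Figure D4:**
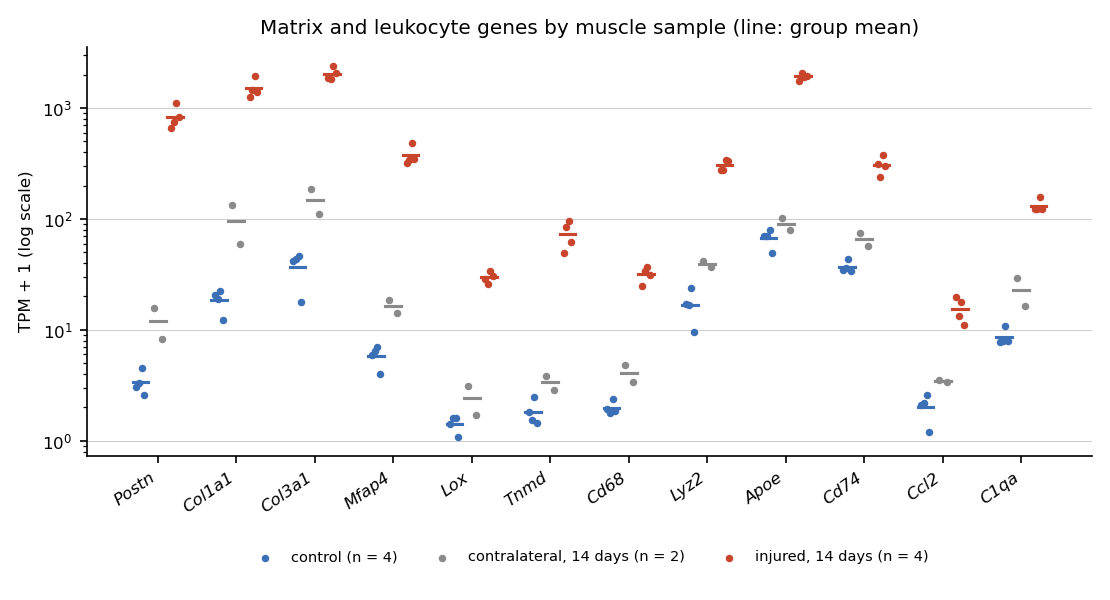
TPM + 1 on a log axis for 12 matrix and leukocyte genes, with 1 point for each control (n = 4), contralateral (n = 2) and injured 14-day (n = 4) muscle and a line at the group mean. In all 12 genes the injured muscles lie above the contralateral muscles, which lie above the control muscles.

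Leukocyte genes were still raised at 14 days. Of the pan-leukocyte and macrophage list 29 of 30 were called higher (29 with size factors and 29 against contralateral muscle), and the summed level was 39.6 to 84.9 TPM in control and 721 to 890.5 TPM in injured muscles. Ptprc (CD45), carried by all leukocytes, was at 0.42, 0.47, 0.64 and 0.08 TPM in control and 5.58, 5.1, 7.11 and 6.81 TPM in injured muscles (log2 fold change 2.36, SE 0.23, adjusted p 6.46e-13), without overlap. Cd68, of macrophage lysosomes, was at 0.92, 0.77, 1.39 and 0.86 TPM in control and 23.6, 33.0, 36.0 and 29.9 TPM in injured muscles (log2 fold change 3.99, SE 0.31, adjusted p 1.91e-16). Mrc1 (CD206), of tissue-resident and repair macrophages, rose from 1.11 ± 0.334 to 15.4 ± 1.10 TPM, and Adgre1 (F4/80) from 0.347 ± 0.206 to 8.99 ± 0.635.

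Genes of macrophages that handle lipid and debris were prominent. Gpnmb was at 2.08, 2.65, 4.26 and 1.63 TPM in control and 79.6, 128, 88.0 and 132 TPM in injured muscles (log2 fold change 4.90, SE 0.44, adjusted p 1.81e-14). Apoe, the lipid carrier, was among the 10 largest gains in TPM, from 68.8, 69.4, 77.8 and 48.0 to 1758, 2064, 1919 and 1956 TPM (log2 fold change 4.86, SE 0.30, adjusted p 3.07e-20), and Ctsk, cathepsin K, a collagen-digesting protease, went from 1.83 ± 1.16 to 88.6 ± 16.9 TPM. In the list 12 of 16 were called higher (12 with size factors), against 16 of 36 for cathepsins and lysosomal genes in general (9 with size factors). Ctsd, the abundant lysosomal protease of all cells, was not called (392 ± 26.9 and 364 ± 22.2 TPM).

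Markers of other immune cells were called in part. Neutrophil genes were called higher in 5 of 10 cases (5 with size factors) and only 2 against contralateral muscle (1 within rats, that is, over the 2 rats that gave both muscles); S100a8 was at 1.60, 1.42, 1.51 and 0.7 TPM in control and 6.65, 7.46, 7.06 and 5.44 TPM in injured muscles (log2 fold change 1.74, SE 0.52, adjusted p 0.00258). The granulocyte receptors Csf3r (0.1 ± 0.0849 and 0.672 ± 0.201 TPM) and Cxcr2 (0.0625 ± 0.0465 and 0.34 ± 0.14) stayed under 1 TPM. T and cytotoxic lymphocyte genes were higher in 12 of 22 (10 with size factors), with the T cell receptor chain Cd3e at 0.07 ± 0.0845 and 1.72 ± 0.16 TPM and the cytotoxic genes Gzmb (0.1 ± 0.0216 and 0.265 ± 0.102) and Prf1 (0.39 ± 0.226 and 0.97 ± 0.215) not called. Cd4, which rat macrophages also carry, was much higher than Cd3e, at 43.7 ± 3.38 TPM. Mast cell genes were higher in 7 of 9 (6), with the protease Cpa3 going from 1.17, 2.13, 1.09 and 0.82 to 15.4, 15.2, 18.9 and 13.7 TPM (log2 fold change 2.89, SE 0.22, adjusted p 4.95e-17), and B and plasma cell genes in 2 of 6 (1 with size factors, and 1, Blnk, without control replicate 4).

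Immune effector lists were raised in part. Complement genes were called higher in 16 of 25 cases (15 higher and 1 lower with size factors), and the initiators of the classical pathway led them, with C1s at 5.83 ± 2.98 and 118 ± 15.7 TPM and C1qa at 7.64 ± 1.49 and 130.3 ± 16.5, while C3, the central component, was under 1 TPM in both groups (0.035 ± 0.0289 and 0.897 ± 0.179) and not called. MHC class II genes were higher in 11 of 13 (11 with size factors), with Cd74, the invariant chain, going from 36.2 ± 4.46 to 307 ± 57.5 TPM. Interferon-response genes were higher in 17 of 26 (14), none by more than 2.01 on the log2 scale. Chemokines were higher in 16 of 28 (15). Ccl6 led them, from 8.78, 7.45, 5.1 and 3.64 to 139.7, 174, 200.1 and 159 TPM (log2 fold change 4.59, SE 0.26, adjusted p 1.32e-21), followed by the platelet and macrophage chemokine Pf4, from 18.5 ± 2.86 to 215 ± 27.4 TPM, while the neutrophil attractants Cxcl1 (0.175 ± 0.221 and 0.7 ± 0.132) and Cxcl2 (0.02 ± 0.04 and 0.122 ± 0.09) were not called. In the interleukin and cytokine list 15 of 28 were higher (14 with size factors, and 13 against contralateral muscle or 3 with both), among them the alarmin Il33, from 5.06 ± 1.17 to 21.9 ± 2.0 TPM, and not Il6 (0.06 ± 0.0735 and 0.165 ± 0.0551) or Tnf (0.198 ± 0.192 and 0.557 ± 0.17).

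Genes of heme, iron and metal handling rose in 10 of 16 cases (8 with size factors). Mt1, a metallothionein that binds zinc and copper, was at 2.06, 3.26, 3.56 and 0.6 TPM in control and 101, 103, 149 and 192 TPM in injured muscles (log2 fold change 5.41, SE 0.34, adjusted p 6.84e-20), and Hmox1, which breaks down heme, went from 2.70 ± 0.968 to 30.7 ± 8.57 TPM. Of the ferritin chains Ftl1, the light chain, rose from 96.5 ± 6.60 to 748 ± 94.8 TPM, and Fth1, the heavy chain, was not called (2361 ± 260.3 and 2479 ± 141). The hemoglobin gene Hba1, among the 10 largest gains in TPM, was at 1926, 796, 989 and 2183 TPM in control and 2626, 3880.5, 5416 and 1757 TPM in injured muscles, with overlap; its reads are shared with a near-identical copy, Hba2. None of the 8 erythroid genes tested in limma was called under either scaling (the adjusted p of Hba1 was 0.145).

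Cell cycle genes were called higher in 17 of 29 cases and lower in 1 (16 and 1 with size factors). Against contralateral muscle 10 were called higher, and only 1 with size factors. Cdk1, the mitotic kinase, was at 0.29, 0.27, 0.14 and 0.13 TPM in control and 5.1, 6.43, 5.04 and 6.44 TPM in injured muscles (log2 fold change 2.48, SE 0.26, adjusted p 2.94e-12), and Mki67 at 0.133 ± 0.0685 and 2.09 ± 0.26 TPM. Tpx2, a spindle protein, went the other way and is described with the lower genes.

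Vessel, nerve and surface markers were called in part. Endothelial genes were called higher in 9 of 24 cases but in only 1 with size factors, Plvap, of fenestrated and sprouting vessels (5.42 ± 0.894 to 30.4 ± 5.0 TPM), and 1 was then lower, Flt1. Pecam1 had 17.4 ± 5.26 and 43.5 ± 5.1 TPM. Smooth muscle and myofibroblast genes were higher in 11 of 18 and lower in 1 (3 and 2 with size factors), with Tagln going from 29.6 ± 6.32 to 117 ± 14.6 TPM. Schwann cell and nerve genes were higher in 8 of 16 (6 with size factors). Gap43, of growing axons and repair Schwann cells, was at 0.62, 0.41, 0.26 and 0.39 TPM in control and 4.22, 2.93, 4.75 and 4.29 TPM in injured muscles (log2 fold change 1.82, SE 0.23, adjusted p 6.97e-10), without overlap. Of the 4 gland epithelium genes tested 2 were higher, Krt8 (0.237 ± 0.0971 to 2.45 ± 0.69 TPM) and Krt18 (0.0175 ± 0.035 to 1.34 ± 0.621), with 1 other member, Amy1a, lower with size factors, and the 1 keratinocyte gene tested, Krt10, was not called.

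Of the 62 genes called lower, 3 fell by more than 4-fold on the log2(TPM + 1) scale, and Lmod1 was not among them. The lowest without overlap were, in order, Hmgn5 and Arrdc2, described below, and LOC100910189. Lmod1, a leiomodin of smooth muscle, was at 25.9, 30.0, 23.5 and 17.2 TPM in control, 14.9 and 12.9 TPM in contralateral and 5.45, 6.25, 5.29 and 6.15 TPM in injured muscles (log2 fold change -1.87, SE 0.20, adjusted p 1.05e-11). Lingo4 (7.94 ± 0.883 to 1.58 ± 0.449 TPM), Cib2, a calcium and integrin binding protein (47.6 ± 3.80 to 13.7 ± 1.98) and the uncharacterized LOC100910189 (219 ± 51.2 to 52.6 ± 6.45) fell as well. The phosphatase Dusp26 was at 175, 174, 179 and 128 TPM in control and 55.9, 50.6, 43.1 and 50.3 TPM in injured muscles and was called lower too. These 5 genes were also called lower against contralateral muscle, Dusp26 not when the comparison was made within rats.

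Most lower genes were not. Of the 62, 49 were not called against contralateral muscle and 13 were (8 within rats). Only 2 of the 62 were called lower in contralateral against control muscle. A missing call against 2 contralateral muscles does not show that the levels were equal. Hmgn5, a nucleosome-binding protein, was at 12.2, 8.39, 10.7 and 2.54 TPM in control, 0, 0.88, 0 and 0 TPM in injured and 0 and 0 TPM in contralateral muscles. It was thus as low in the uninjured leg as in the injured one. Arrdc2, an arrestin-domain protein, was at 32.9, 80.7, 53.0 and 14.2 TPM in control, 4.43, 6.84, 5.93 and 4.67 TPM in injured and 6.23 and 12.1 TPM in contralateral muscles. Tpx2 was at 30.8, 27.6, 52.7 and 18.6 TPM in control, 12, 6.53, 5.93 and 10.2 TPM in injured and 20.3 and 11.9 TPM in contralateral muscles. For both genes the contralateral muscles lay below most or all control muscles. Chac1, a glutathione-degrading stress enzyme, had 139, 172, 55.7 and 52.0 TPM in control, 30.1, 30.9, 23.2 and 11.4 TPM in injured and 47.0 and 46.7 TPM in contralateral muscles.

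Clock and activity genes were among them. Ciart, a repressor of the circadian clock, was at 4.78, 8.47, 14.5 and 6.77 TPM in control, 0.63, 1.88, 1.21 and 2.25 TPM in injured and 0.22 and 4.26 TPM in contralateral muscles (log2 fold change -1.90, SE 0.31, adjusted p 3.37e-07 against control). In the clock list 1 of 15 was called higher, Npas2 (0.455 ± 0.364 to 3.56 ± 1.20 TPM), and 2 lower, Ciart and Per1 (24.9 ± 11.6 to 10.6 ± 5.04). With size factors 1 was higher and 4 lower, Nr1d1 and Bhlhe40 being added. The hour of collection is not given, and its part in these values was not tested. Nr4a1, an exercise- and activity-induced nuclear receptor, was at 169, 209, 113 and 57.5 TPM in control, 47.2, 60.8, 42.0 and 35.5 TPM in injured and 82.8 and 65.4 TPM in contralateral muscles (log2 fold change -1.42, SE 0.30, adjusted p 4.14e-05). Of the early genes 2 of 19 were called higher, Junb and Egr1, and Nr4a1 alone lower, joined by Nr4a3 without control replicate 4. With size factors 0 were higher and 3 lower, Nr4a1, Nr4a3 and Ostn, so the direction of the list's calls turned with the scaling.

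The contralateral muscles allow the same question within the operated rats. Against them 2393 genes (21.3%) were called, 2374 (21.2%) higher and 19 (0.169%) lower in injured muscle, with 2 muscles in the reference. With size factors 1169 were higher and 415 lower. The 2 contralateral muscles came from the rats of injured replicates 1 and 2, and with the rat as a fixed block, so that the difference came from these 2 rats alone, 1986 were higher and 12 lower. The control and contralateral comparisons share the injured muscles, so their values are set side by side without a test of overlap. The log2 fold changes against control and against contralateral muscle were 7.10 and 7.2 for Sln, 6.80 and 6.75 for Klk1, and 6.4 and 6.57 for Ankrd1, the 3 highest genes without overlap against contralateral muscle. For Postn they were 7.95 and 6.16, for Col1a1 6.36 and 4.07, for H19 2.91 and 1.75, and for Chrng 4.82 and 4.72. The lowest genes without overlap against contralateral muscle were Cish, a cytokine signal suppressor (-1.95), the mitochondrial carrier Slc25a25 (-1.74), both not called within rats (-0.56 and -0.91), and Aqp4, the water channel of fast fibers, at 40.2 and 39.4 TPM in contralateral and 10.2, 18.6, 14.9 and 11.3 TPM in injured muscles (log2 fold change -1.5, SE 0.59, adjusted p 0.023).

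The 2 references themselves differed in some of these genes. Between contralateral and control muscle 93 genes (0.829%) were called, although with only these 2 groups in the model none was (907 at an unadjusted p under 0.05). Without contralateral replicate 1 there were 8 calls, with the remaining muscle assumed to vary like the other groups, and without control replicate 4 there were 55. Col1a1 was at 19.6, 18.1, 21.5 and 11.4 TPM in control and 133 and 58.1 TPM in contralateral muscles (log2 fold change 2.29, SE 0.48, adjusted p 0.00297). For H19 the log2 fold change of contralateral over control muscle was 1.16, and for Postn 1.79. Acot4 was at 0.53, 0.68, 0.55 and 0.05 TPM in control, 5.31 and 7.11 TPM in contralateral and 5.91, 11.4, 5.17 and 4.73 TPM in injured muscles, and it was called against control (log2 fold change 2.38) but not against contralateral muscle. Mir223 was listed at 0 in control muscle and was at 6.59 and 14.9 TPM in contralateral and 9.05, 9.21, 32.0 and 41.0 TPM in injured muscles.

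Part of the leukocyte and junction genes were lower at 14 than at 7 days. In 7-day replicate 1 the ribosomal RNA symbols took 16.2% of TPM, against 0.0826% to 0.291% in the other 7-day muscles, and another library of its rat has conflicting labels. It was the lowest 7-day muscle for Chrng (51 against 109 to 184 TPM) and Myog (131 against 283 to 445). Without it 747 genes were called, 76 higher and 671 lower, with 19 leukocyte and 10 junction members lower. The log2 fold changes without it were -2.34 for Chrng and -1.46 for Myog, and the values below include it. Against injured muscle at 7 days (8 muscles), 777 genes (6.93%) were called, 82 (0.731%) higher and 695 (6.2%) lower at 14 days. With size factors 288 were higher and 183 lower, so the direction of the majority of calls turned with the scaling. In the pan-leukocyte list 19 of 30 were lower at 14 days (10 with size factors) and in the denervation list 10 of 22 (6 lower and 1 higher with size factors). The 7-day replicates 1 to 4 came from lower-numbered rats than replicates 5 to 8. Cd68 was at 98.0 to 196 TPM in the former and 40.9 to 89.1 TPM in the latter, and Lyz2 at 1405 to 2300 and 451 to 1129. Chrng overlapped between these sets. The part that rat number had in the leukocyte fall was not tested. Chrng had 51.0 to 184 TPM at 7 days and 22.2 to 53.8 TPM at 14 days (log2 fold change -2.15, SE 0.30, adjusted p 7.93e-08). Myog had 131 to 445 and 96.6 to 188 TPM (log2 fold change -1.29, SE 0.27, adjusted p 5.27e-05), a call that was lost with size factors. Of fast-fiber genes 9 of 20 were higher at 14 than at 7 days (17 with size factors), among them Mybpc2, a fast myosin-binding protein (log2 fold change 1.85, SE 0.27, adjusted p 1.18e-07), and of glycolytic genes 9 of 22 (19). The other highest genes without overlap were Ky, a Z-disc protein (log2 fold change 2.19, SE 0.27, adjusted p 5.28e-09), and Ostn, the secreted factor musclin (log2 fold change 1.90, SE 0.48, adjusted p 5.36e-04). The lowest without overlap were Spp1 (osteopontin, log2 fold change -4.21, SE 0.52, adjusted p 5.19e-09), the Il33 receptor Il1rl1 (log2 fold change -2.92, SE 0.22, adjusted p 7.41e-15) and the tenascin Tnn (log2 fold change -2.70, SE 0.36, adjusted p 1.88e-08).

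At 28 days (4 muscles) 68 genes (0.606%) were called against 14 days, 12 (0.107%) higher and 56 (0.499%) lower. The count rested on single muscles: it was 22 without injured 14-day replicate 3, 44 without replicate 4, 30 to 43 without each of the 28-day replicates 1 to 3, and 112 without 28-day replicate 4. Of the matricellular list 6 of 15 were lower (6 with size factors), among them Tnc, tenascin-C (log2 fold change -1.99, SE 0.38, adjusted p 0.00173), and Postn (log2 fold change -1.69, SE 0.39, adjusted p 0.0127), which still had 107 to 436 TPM at 28 days. Dlk1 went from 48.9 to 113 TPM at 14 days to 4.46 to 27.3 TPM at 28 days (log2 fold change -2.47, SE 0.37, adjusted p 6.13e-05), and Tnn fell further (log2 fold change -2.36, SE 0.41, adjusted p 3.64e-04). The highest without overlap at 28 days were Calml3 (log2 fold change 2.23, SE 0.28, adjusted p 1.01e-06), Mir3555 (log2 fold change 2.19, SE 0.62, adjusted p 0.0469) and Cst7 (log2 fold change 1.52, SE 0.40, adjusted p 0.0288). Sln (2363 to 5720.3 TPM), H19 (14466 to 18128) and Chrna1 (106 to 240.4) were not called between 14 and 28 days.

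**Figure D5:**
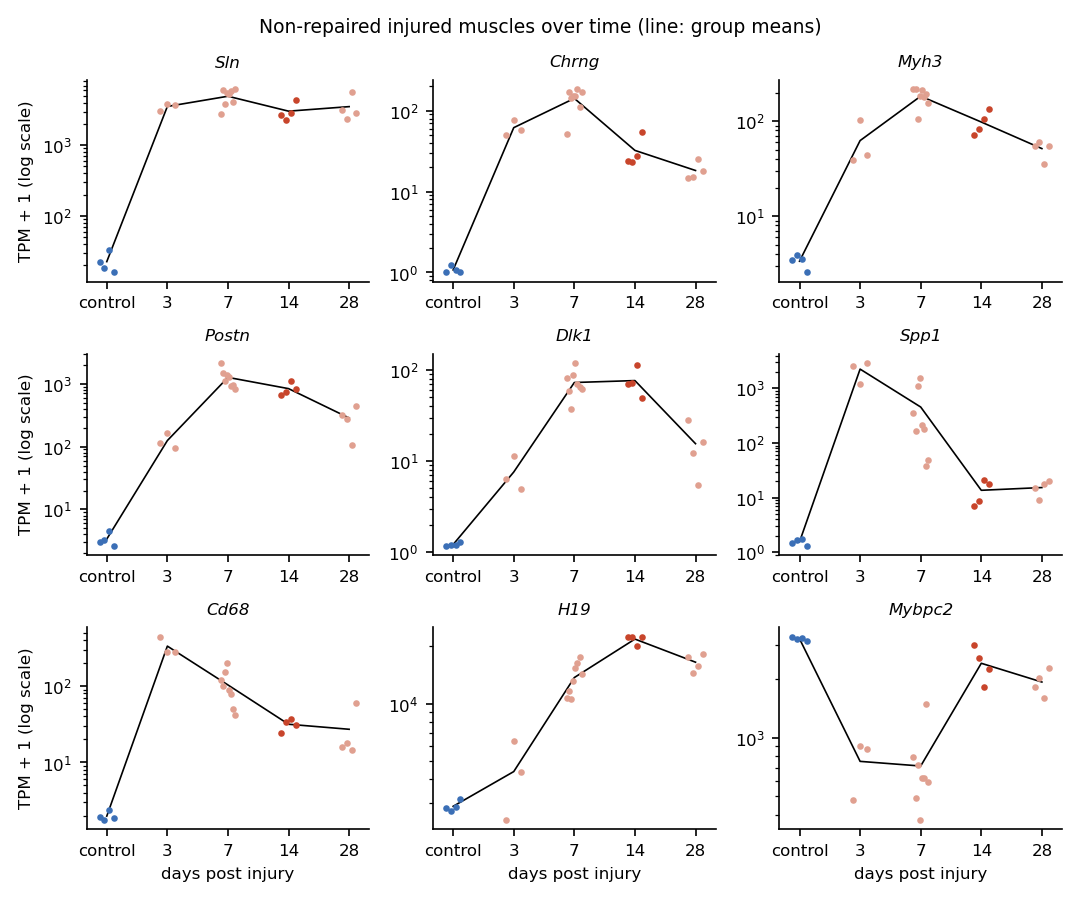
TPM + 1 on a log axis for 9 genes, with 1 point for each control muscle (4) and each unrepaired injured muscle at 3, 7, 14 and 28 days (3, 8, 4 and 4) and a line through the group means. Chrng is lower at 14 than at 7 days, Postn is lower at 28 than at 14 days, and both remain above control at 28 days.

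Running rats with the same injury at 14 days (4 muscles, labelled Run) were a separate set of injured muscles. Against the non-running injured muscles none of the 11216 genes tested in limma was called (0%), with 1124 at an unadjusted p under 0.05 and 2 called with size factors. Leaving out running replicate 3 gave 19 calls, and leaving out running replicates 1 or 4 or non-running replicate 4 gave 1, 5 and 4. Sln was at 3578 to 9783 TPM in running and 2286 to 4339 TPM in non-running injured muscles, Chrng at 28.9 to 99.8 and 22.2 to 53.8, Postn at 159.8 to 1301 and 655 to 1103, and H19 at 15983 to 22621 and 20119.7 to 22409. The ranges of the 2 injured groups overlapped in each of these genes, and all lay above the control values. Other genes did not overlap: Spp1 was at 27.3 to 152 TPM in running and 5.95 to 20.3 TPM in non-running injured muscles.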

How the data were processed

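RNA from whole TA muscle was made into TruSeq libraries and sequenced as paired reads. The authors quantified them with Kallisto on rat build 6.0 (version not given in the sources used here). The deposited TPM values, 1 row per symbol, were used unchanged. The table, in alphabetical order, breaks off within its last of 16182 entries, which left 16181; all gene and list counts thus stop at Tubb3.

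Samples were grouped by their labels, and 9 of 138 libraries with conflicting labels were left out. Libraries with fewer than 7000 symbols above 1 TPM were dropped (13 in the series), and libraries of 1 muscle were averaged. A gene entered the tests if any of 17 groups of non-running rats had a mean over 1 TPM. Log2(TPM + 1) values of 68 muscles were fitted together in limma 3.58.1 (R 4.3.3, 51 residual degrees of freedom, variance trend on intensity), and running muscles were added as a further group for that comparison. P values were adjusted by Benjamini-Hochberg over the tested genes. Calls needed an adjusted p below 0.05 together with a log2 fold change beyond 1, the thresholds of the study's methods; the count test named there was not applied to TPM. Fold changes on this scale understate those of low genes. P values set each difference against the spread between muscles within groups over all fitted muscles, moderated across genes, and not over the compared muscles alone.

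The members compared and the 50 gene lists were chosen with earlier results of these data known. Named genes are the 10 highest and 10 lowest called genes without overlap, the 10 largest gains and losses of mean TPM, the highest and lowest 3 and defining members of each list, and 3 each way in the other comparisons. Some further list members, the microRNA genes and the members named as not called were chosen after their values were seen. A few list members are counted in their lists but not reported here by name.

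Alternatives were a pseudocount of 0.1, no filter, size factors, only the compared groups, the rat as a random block (statmod 1.5.0), low-complexity libraries kept, the fold change alone, no trend, control muscles averaged per rat or 1 control rat left out, running or minced graft muscles pooled in, contralateral muscle as the reference, and each muscle left out. List counts without control replicate 4 or 7-day replicate 1, and the rat as a fixed block for injured against contralateral muscle, were added after seeing the data. The code was tested on simulated data. Python 3.11.15 with pandas 2.3.3, numpy 2.4.6 and matplotlib 3.10.9 made the tables and plots.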

Additional observations from a re-analysis of the deposited data

Results flagged for a closer look

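In groups of 4 muscles, a muscle was singled out where its distance from the nearest other, as a share of the group's range, exceeded Dixon's limit. This held for 35 of 378 gene and group pairs. The usual share of 1 in 20 holds for independent normal values and is no baseline here. Genes share the same muscles, and a muscle is always singled out where the other 3 are at 0. Control replicate 4, the library with the fewest symbols, was the lowest for C1s (1.47 TPM), Col3a1 (16.8), Ctsk (0.1), Dusp26 (128), Gadd45a (9.75), Grb10 (16.5), Loxl2 (0.21), Pecam1 (9.53), Plagl1 (0.35), S100a8 (0.7) and Smad4 (17.9), and the highest for Mylpf (53489). Other control muscles stood apart as the highest for C1qa (9.87 TPM in replicate 3), Tnnt2 (1.76), Mir3555 (5.57), Agtr2 (0.2), Cxcl2 (0.08), Krt18 (0.07), Lrrc15 (0.04), Mmp13 (0.04), Mmp8 (0.12) and P4ha3 (0.19). From Mir3555 on, the other 3 control muscles were at 0.

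Among injured muscles, replicate 3 was the highest for Agtr1a (9.25 TPM), C1qa (155), Igfbp6 (334) and Mmp2 (372) and the lowest for H19 (20119.7). Replicate 1 was the lowest for Ftl1 (608) and Mmp13 (0.24), replicate 2 the lowest for Id2 (19.3) and Plvap (23.0) and the highest for Hmgn5 (0.88) and Mir3555 (1.89), and replicate 4 the highest for Plaur (6.74) and Tnc (53.1). None of these muscles crossed into the range of the other group where the gene was called.

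Injured muscles differed between days by the tests in the report, with 777 genes called between 7 and 14 days and 68 between 14 and 28 days. These tests held no uninjured muscle of the same day, so they do not test a change in the effect of injury. For 14 against 7 days the direction of most calls turned with size factors.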

How the results depend on the processing

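The 2893 calls of injured 14-day against control muscle became 4422 with a pseudocount of 0.1 TPM, and ranged from 2488 to 3178 with 1 muscle left out; no other alternative moved the count by over 1.5 times. Against contralateral muscle there were 3812 calls with that pseudocount, 1584 with size factors, and 2188 to 2535 with 1 muscle left out. For 14 against 7 days the counts were 1403 with the pseudocount, 471 with size factors, 256 with low-complexity libraries kept, and 612 to 1010 with 1 muscle left out. For 28 against 14 days they were 131 with the pseudocount, 32 with low-complexity libraries kept, 118 by the fold change alone, and 22 to 112 with 1 muscle left out. Contralateral against control muscle gave 472 calls with the pseudocount, 180 with size factors, 0 with only the compared groups, 2 with low-complexity libraries kept, 171 by the fold change alone, 37 with control muscles averaged per rat, 122 and 56 with the first or the second control rat left out, and 8 to 132 with 1 muscle left out. Running against non-running muscle gave 2 with size factors, 1 with only the compared groups, 2 with low-complexity libraries kept, 34 by the fold change alone, and 0 to 19 with 1 muscle left out. The cause of these shifts was not tested.

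The rat as a random replicate block had an estimated correlation of -0.00745 (-0.00646 for the running comparison) and gave the same counts as the fits without it, 2893, 2393, 777, 68, 93 and 0; injured and contralateral replicates 1 and 2 at 14 days are from the same rats by their labels. With the rat as a fixed replicate block, 1998 genes were called between them, 12 of them lower against 19 without it; injured and control muscles share no rat, so no such pairing was possible there. Of the named genes called in limma against control, 116 of 133 were called under every alternative setting of that comparison, and 0 reversed. That tally leaves out contralateral muscle as the reference, against which some named genes, such as Mstn and Acot4, were not called. TPM holds no depth, so genes near 1 TPM could not be given a counting error.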

Other observations

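Imprinted genes, expressed from 1 parental copy and mostly active in fetal growth, were listed after the values of H19, Igf2 and Dlk1 had been seen, so their counts carry no test. Of 13 tested symbols 11 were called higher at 14 days (9 of 12 with size factors), and 0 lower.
Besides H19, Igf2 and Dlk1, Mest was at 1.90, 2.15, 2.57 and 0.75 TPM in control, 6.21 and 6.53 TPM in contralateral and 52.9, 65.7, 86.3 and 67.6 TPM in injured muscles (log2 fold change 4.63, SE 0.31, adjusted p 4.14e-19 in limma), without overlap. Cdkn1c (p57), a cell cycle inhibitor of differentiating muscle, was at 1.52, 2.57, 1.76 and 1.64 TPM in control and 62.9, 58.7, 73.9 and 48.5 TPM in injured muscles (log2 fold change 4.43, SE 0.30, adjusted p 5.88e-19 in limma). Plagl1, a zinc finger factor, rose from 0.657 ± 0.206 to 13.5 ± 3.41 TPM and Peg3 from 2.96 ± 1.40 to 24.4 ± 3.80 (SD, n = 4). Grb10 had 33.2 ± 11.2 and 64.2 ± 5.40 TPM and was called as deposited but not with size factors, while Dio3 (0.0625 ± 0.0685 and 0.282 ± 0.134) and Impact (10.8 ± 5.55 and 16.9 ± 1.48) were not called. Dlk1, Mest and Plagl1 were called lower at 28 than at 14 days.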
